A study of Homo sapiens with 5 samples.

Results

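The MYC locus was taken as every H3K27ac peak of chromosome 8 with its centre between 126.7 Mb and 128.9 Mb in GRCh38, a window of 2.2 Mb around MYC and the neighbouring lncRNA gene PVT1. This rule used positions only, and 31 of the 20087 peaks in the authors' table met it. The cells were HCT116, a human colorectal carcinoma line, in the derivative CMV-osTIR1 RAD21-mAC, which carries the auxin receptor osTIR1 and a tagged form of the cohesin subunit RAD21 in both groups. The sample labels name no auxin treatment. All cells were kept in 0.1% DMSO for 6 h. IFN-β, a type I interferon, was added at 1000 unit/ml for 1 h before 2 of the libraries were taken. The 2 control libraries came from cells with no further treatment, and 1 input library served as background. The labels place the control libraries at the start of that hour, so IFN-β and an added hour of culture cannot be told apart. The table gives a mean per group and no value per library, so every level below is the authors' mean of 2 libraries, without SD. A test against the spread between libraries could not be made from these means, and the table's own test columns were not used.

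MYC encodes a transcription factor that pairs with MAX, binds E-box sequences and drives genes of growth, ribosome production and metabolism. It sits in a gene-poor region and is controlled by enhancers that lie far away on both sides, some of them within lncRNA genes. In colorectal cancer cells MYC is a target of the Wnt pathway through β-catenin and TCF factors, and an enhancer cluster near the lncRNA gene CCAT1 is known to contact the MYC promoter. PVT1 is transcribed in the same direction as MYC, and its promoter is known to compete with that of MYC for enhancers inside PVT1. H3K27ac marks active promoters and enhancers. Type I interferon acts through STAT and IRF factors.

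HCT116 cells had H3K27ac peaks at the MYC and PVT1 promoters, at a distant upstream cluster and inside PVT1 in both groups. Of the 31 peaks, 29 had a lower mean after IFN-β than in control, with a median log2 difference (IFN-β minus control) of -0.59. The whole table was shifted in the same direction, with a median of -0.69 over all 20087 peaks, and relative to that median the locus turned to 0.10 above it. In the medians, peaks of like position did not show this offset. Over 1 kb from any start site, the median was -0.59 for the 23 locus peaks and -0.56 for the 7449 of the table. Within 1 kb of a start site, it was -0.805 for the 8 locus peaks and -0.74 for those of the table. The summed signal of the locus was 1395 normalized reads in control and 916 after IFN-β, a log2 ratio of -0.61 with a 95% counting interval from -0.68 to -0.53. Over all peaks this ratio was -0.70, so the locus held 0.159% of the signal in control and 0.170% after IFN-β. Within 1 kb of a start site, the summed log2 ratio was -0.71 for the locus and -0.76 for the table, the reverse order of the medians. Over 1 kb from any start site, it was -0.56 and -0.54.

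Levels are log2 of mean normalized reads per peak. The counting interval reads the lowest value of each group (-0.17 in control and -0.59 after IFN-β) as 1 read in each library. By this estimate the 31 peaks rested on 17.8 to 329 reads in control and 9.85 to 311 after IFN-β. The interval covers counting error only and holds no spread between replicates. It is approximate, since the study describes the peak counts as controlled for input coverage without saying how, and error from input reads is not included.

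Epithelial identity was checked with markers. All 5 of EPCAM, CDH1, KRT8, KRT18 and CDX2 had a peak within 5 kb of a start site, compared with 2 of 5 genes of other cell types, COL1A1 and VIM. Control levels overlapped between the lists. The strongest peak of each epithelial gene lay between 4.89 (CDH1) and 7.10 (EPCAM), while COL1A1 was at 5.24 and VIM at 2.66.

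The peaks were unevenly placed along the 2.2 Mb. With a gap of more than 100 kb taken as a break, they formed 8 groups, made of a block of 13 peaks upstream of MYC, a block of 12 peaks over MYC and the start of PVT1, and 6 single peaks. The window overlaps 29 genes in GENCODE release 44, of which 15 are lncRNA genes and 2 are protein-coding, MYC and POU5F1B. Of the 31 peaks, 23 had their centre over 1 kb from any annotated start site, and 2 were wider than 1000 bp. The median GC content was 44% in the locus and 58.1% over all peaks, and 45.9% over the 7449 distal peaks of the table, those over 1 kb from any start site.

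**Figure D1:**
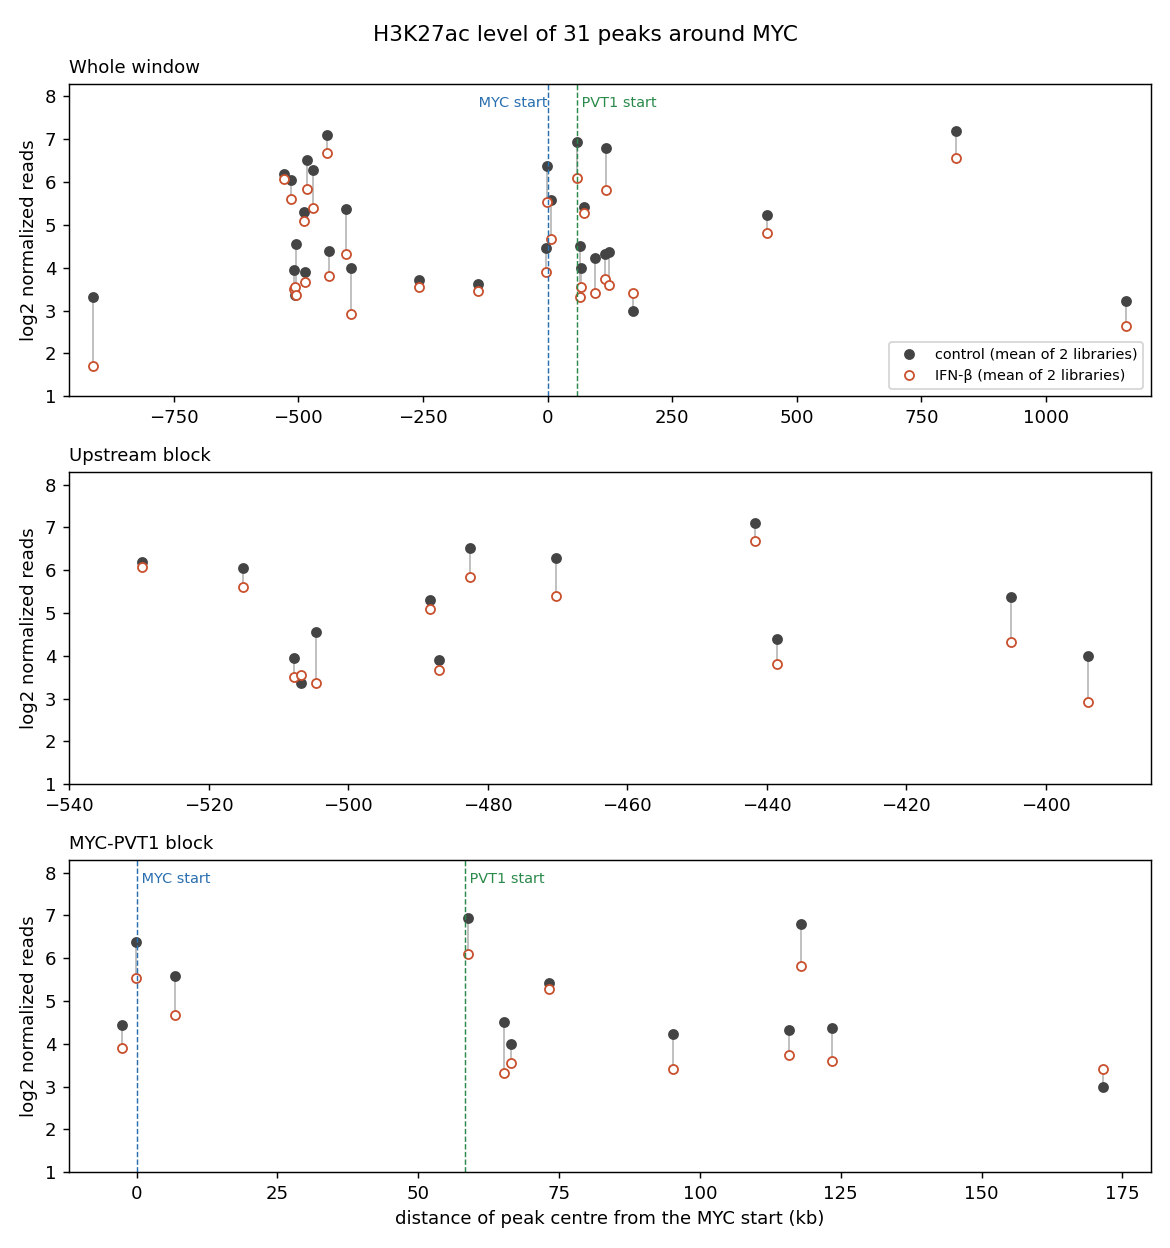
H3K27ac level (log2 normalized reads, the authors' mean of 2 libraries) of the 31 peaks against the distance of the peak centre from the MYC start in kb, for the whole window and for both blocks; filled circles are control and open circles IFN-β. Control levels reach 7.11 in the upstream block, 6.94 in the MYC-PVT1 block and 7.19 at a single peak 820 kb beyond MYC, and the open circle lies above the filled one at 2 peaks (at 19 after centring on the table median).

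At MYC itself, the promoter peak (chromosome 8, 127735640 to 127736640) was centred 91 bp before the start of the canonical transcript, within coding sequence of other annotated MYC transcripts and an intron of the opposite-strand lncRNA gene CASC11. Its level was 6.38 in control and 5.53 after IFN-β. The control level was higher than that of 86.5% of all peaks. The log2 difference was -0.85, with a counting interval from -1.17 to -0.53, so the promoter had 55.5% of its control signal. The interval held the table median of -0.69. A weaker peak 2.53 kb before the start (127733200 to 127734200), 256 bp from a start of CASC11, went from 4.45 to 3.91, a log2 difference of -0.54. Both peaks together had a log2 ratio of -0.78, with a counting interval from -1.06 to -0.50. A wider peak just past the end of the gene (127742009 to 127743954, 6.75 kb from the start) went from 5.58 to 4.67, a log2 difference of -0.91.

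PVT1 begins 58.3 kb beyond the MYC start and carried the strongest promoter of the locus. The peak centred 482 bp after the canonical start (127794523 to 127795523), in an intron, was at 6.94 in control and 6.10 after IFN-β. This control level was above 95.9% of all peaks and above that of the MYC promoter by 0.56. The log2 differences at both promoters were nearly equal, -0.84 at PVT1 (counting interval from -1.10 to -0.58) and -0.85 at MYC.

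Within PVT1 lay 10 peaks in all, with log2 differences between -1.19 and 0.44 and a median of -0.68. The strongest internal peak (127853713 to 127854713), 118 kb from the MYC start and 183 bp from an annotated start of a PVT1 transcript, went from 6.80 to 5.82. Its log2 difference of -0.98 had a counting interval from -1.26 to -0.70, and this was the sole interval in the locus that lay wholly below the table median. By contrast, an internal peak 73.3 kb from the MYC start (127808997 to 127809997) was nearly level, at 5.43 in control and 5.29 after IFN-β. Its log2 difference of -0.14 had a counting interval from -0.53 to 0.25, wholly above the table median. Apart from a peak near the 3' end of the gene the other internal peaks were weaker, with control levels from 2.98 to 4.51. Among them, the peak at 127801003 to 127802003 had the lowest log2 difference inside PVT1, -1.19, from 4.51 to 3.32. The neighbouring peak at 127802151 to 127803151 went from 4.00 to 3.55. Further along, the peaks at 127831004, 127851533 and 127859098 had log2 differences of -0.80, -0.59 and -0.77. The peak at 127907288 to 127908288 had the highest of the locus, 0.44, from 2.98 to 3.42. That peak was the weakest of the 31 in control and rested on 17.8 reads there, and its interval ran from -0.40 to 1.28. At this depth no difference from 0 was detectable at it, though the interval lay wholly above the table median of -0.69.

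The upstream block lay 394 to 530 kb before the MYC start, in a stretch covered by introns of the lncRNA gene PCAT1 and, in parts, by CASC19, CASC8 and POU5F1B, a retrogene of the stem cell factor OCT4. Its 13 peaks had control levels between 3.36 and 7.11, with a median of 5.31, compared with 4.48 in the MYC-PVT1 block. The strongest (127294107 to 127295107), in introns of PCAT1 and CASC8, was at 7.11 in control and 6.69 after IFN-β. Its control level was above 97.4% of all peaks and exceeded that of both promoters. Its log2 difference of -0.42 had a counting interval from -0.65 to -0.19, above the table median. The next strongest (127253259 to 127254259) went from 6.52 to 5.85, a log2 difference of -0.67. The peak at 127265494 to 127266494 went from 6.29 to 5.39, and its log2 difference of -0.90 was near that of the MYC promoter. A peak at 127247420 to 127248420 went from 5.31 to 5.10, with an interval from -0.62 to 0.20, and the weak peaks at 127248814 and 127297171 had log2 differences of -0.22 and -0.60.

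At CCAT1, which RefSeq places from 127207382 to 127219268 on the minus strand, peaks flanked the gene on both sides. The peak 152 bp beyond its 3' end (127206230 to 127207230), in an exon of a CASC19 transcript, was at 6.20 in control and 6.08 after IFN-β. This peak was centred 108 bp from an annotated start of CASC19 and was not counted among the distal peaks. Its log2 difference of -0.12, with a counting interval from -0.42 to 0.18, was higher than that of 91.1% of all peaks. The peak 1.86 kb before the CCAT1 start (127220624 to 127221624) went from 6.04 to 5.61, a log2 difference of -0.43. Both values were higher than that of the MYC promoter, but the interval of the second, from -0.76 to -0.10, overlapped that of the MYC promoter. Weaker peaks 9.19 to 12.4 kb before the CCAT1 start differed among themselves. The first of them (127227958 to 127228958), 917 bp from a start of CASC19, went from 3.94 to 3.51. The peak at 127229010 to 127230010 was at 3.36 in control and 3.54 after IFN-β, a log2 difference of 0.18 with an interval from -0.58 to 0.94. The adjacent wider peak at 127230832 to 127232451 went from 4.56 to 3.37, a log2 difference of -1.19. The end of the block nearest to MYC, in introns of POU5F1B, PCAT1 and CASC8, held the other low values. There the peaks at 127330672 to 127331672 and 127341834 to 127342834 had log2 differences of -1.05 and -1.07.

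Away from both blocks, the peak with the highest control level of the whole window stood alone in an intron of LINC00824 (128555361 to 128556361), 820 kb beyond the MYC start. It was at 7.19 in control and 6.57 after IFN-β, and its log2 difference of -0.62 (counting interval from -0.85 to -0.39) was close to the table median. The 2 single peaks between the blocks, 257 and 140 kb before MYC, were weak in control (3.71 and 3.63) and had log2 differences of -0.16 and -0.17. A peak near the 3' end of PVT1 (128176524 to 128177524) went from 5.24 to 4.82. At the borders of the window, the peak at 126824375 to 126825375 had the lowest log2 difference of the locus, -1.60, from 3.31 to 1.71, and rested on 9.85 reads after IFN-β. The peak at 128896859 to 128897859, in an intron of CCDC26, went from 3.23 to 2.64. Just outside the window, the nearest peaks had log2 differences of -0.54, nearest to a start of PCAT1, and -0.67, nearest to a start of CCDC26.

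**Figure D2:**
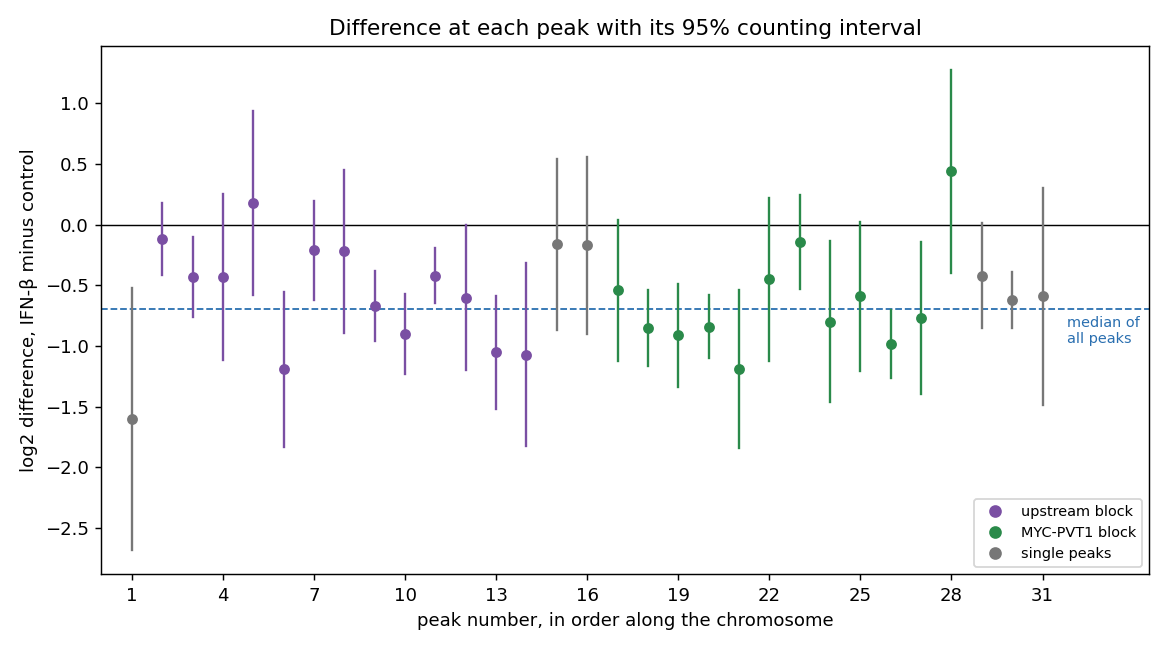
Log2 difference between the IFN-β and control means for the 31 peaks in their order along the chromosome, coloured by block; vertical lines are 95% counting intervals and the dashed line is the median of all 20087 peaks, -0.69. Of the 31 intervals, 24 cross the dashed line, and 29 points lie below 0, while 19 lie above the dashed line.

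The locus was counted against the whole table. The log2 difference was above 0 at 2 of 31 peaks (6.45%), compared with 5.93% of all peaks. It was below -1, less than 50% of the control signal, at 5 of 31 (16.1%), compared with 17.4% of all peaks. The counting interval lay wholly below 0 at 17 of 31 (54.8%), compared with 67.1% of all peaks and 49.1% of the distal ones. It lay wholly above the table median at 6 of 31 (19.4%), compared with 8.82% of all peaks and 15.3% of the distal ones. It lay wholly below the table median at 1 of 31 (3.23%), compared with 8.05% of all peaks and 5.05% of the distal ones. Over the 23 distal peaks of the locus, the interval lay wholly below 0 at 12 (52.2%). It lay wholly above the table median at 5 of them (21.7%) and wholly below it at 0. The SD of the log2 difference across the 31 peaks was 0.43, and the root mean square of their counting errors was 0.30. Over all peaks these were 0.46 and 0.37. The rest of chromosome 8, with 753 peaks, had a median log2 difference of -0.68 and a summed log2 ratio of -0.70.

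Strong peaks in control were also strong after IFN-β. Spearman's rho between the control and IFN-β levels was 0.882 over the 31 peaks, compared with 0.952 over all peaks. The 5 strongest control peaks were those in LINC00824, in PCAT1 and CASC8, at the PVT1 start, inside PVT1 and at 127253259 in PCAT1, from 7.19 to 6.52. Neighbours in this order differed by 0.08 to 0.28 on the log2 scale, without a spread over libraries to set this against. Spearman's rho between the log2 difference and the position relative to the MYC start was -0.04, between the log2 difference and GC content -0.11, and between the log2 difference and the control level -0.25 (31 peaks each, which share the same 4 libraries). Over all peaks the last pair gave -0.28 and -0.27. The control level is subtracted in the log2 difference, so error in that level alone tends to make its rho with the difference negative.

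Summed over blocks, the upstream block had a larger share of its control signal after IFN-β than the MYC-PVT1 block. The upstream block had 630 normalized reads in control and 441 after IFN-β over 13.6 kb of peaks, a log2 ratio of -0.51 with a counting interval from -0.62 to -0.41. The MYC-PVT1 block had 536 and 319 over 12.9 kb, a log2 ratio of -0.75 with an interval from -0.87 to -0.63. The difference between the blocks was 0.23 on the log2 scale (counting interval from 0.07 to 0.40), and does not depend on a scaling factor common to a group. Without the strongest peak of each block it was 0.18, with an interval from -0.004 to 0.37 that reached 0. It was not seen over the distal peaks alone, where the 11 upstream peaks had a log2 ratio of -0.58 and the 7 of the MYC-PVT1 block one of -0.54, which turned the difference to -0.04 (interval from -0.27 to 0.20). Peaks within 1 kb of a start site were 5 of 12 in the MYC-PVT1 block and 2 of 13 upstream. The 2 upstream had log2 differences of -0.12 and -0.43. The 5 of the MYC-PVT1 block ran from -0.98 to -0.54, so the start-site peaks of the blocks also differed from each other. In the whole table peaks within 1 kb of a start site had a summed log2 ratio of -0.76 and distal peaks one of -0.54. The median GC content was 49.0% in the MYC-PVT1 block and 42.5% in the upstream block, and the part of GC content in the difference between the blocks was not tested.

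Across the genome 394 blocks made by the same gap held 10 or more peaks, and their log2 ratios had a median of -0.71. From the 5th to the 95th percentile they ran from -0.88 to -0.48. The upstream block stood above 90.6% of them and the MYC-PVT1 block above 35.5%. Among the 126 blocks made mostly of distal peaks, these shares were 76.2% and 18.3%.

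**Figure D3:**
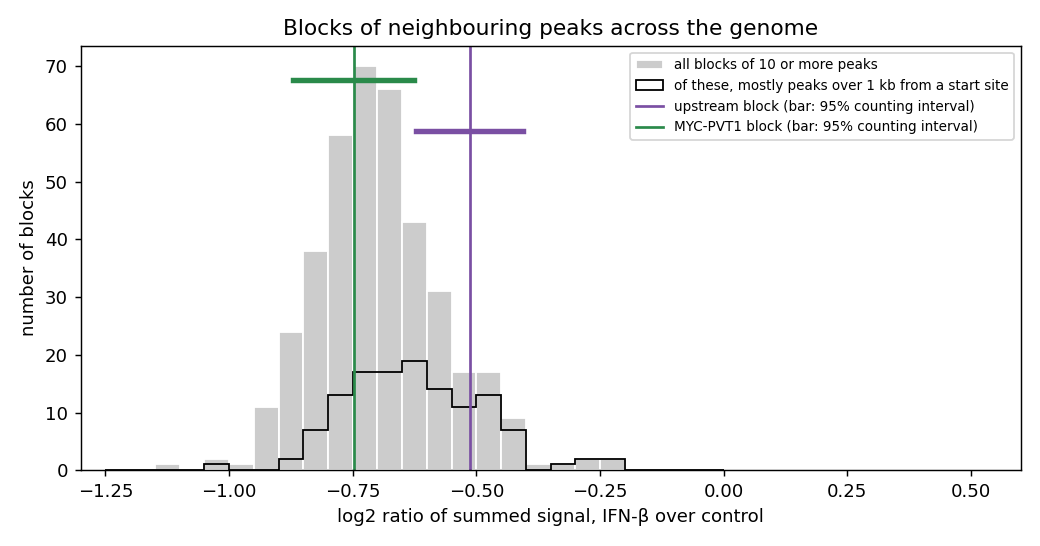
Histogram of the log2 ratio of summed signal (IFN-β over control) for 394 blocks of 10 or more neighbouring peaks, with the 126 mostly distal blocks outlined; vertical lines mark the upstream block (-0.51) and the MYC-PVT1 block (-0.75), and horizontal bars their 95% counting intervals. Both lines fall within the spread of the other blocks, and all blocks have a ratio below 0 on the scale of the table.

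With peaks joined across gaps of up to 10 kb, the 31 peaks made 18 of the 14932 joined regions of the table. The strongest joined region of the locus in control was the start of PVT1, with 4 peaks over 15.5 kb and 205 normalized reads (51.2 per peak), which ranked 436 in control and 408 after IFN-β. The region over MYC, with 3 peaks over 10.8 kb, ranked 884 in control and 1036 after IFN-β. The region at the strongest upstream peak, with 2 peaks over 4.06 kb, moved from rank 801 to rank 512. Other regions of the upstream block moved either way. Those starting at 127206230, 127220624 and 127247420 rose (3886 to 1765, 1692 to 1160 and 984 to 673). Those starting at 127265494, 127330672 and 127341834 fell (3551 to 4329, 7456 to 9011 and 12050 to 13186). Ranks do not depend on a scaling factor common to a group, but could change with the scaling of its 2 libraries relative to each other.

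Short sequence motifs were counted within 500 bp of each peak centre, on both strands. The interferon-response element core, GAAANNGAAA, was present in 7 of the 31 peaks (22.6%), compared with 11.6% of all peaks and 16.0% of distal peaks. The median log2 difference was -0.43 in the 7 peaks with it, which include the lowest of the locus (-1.60), and -0.65 in the others. The STAT-type motif TTCNNNGAA was present in 12 (38.7%, compared with 21.8% of all peaks and 27.7% of distal peaks), with medians of -0.60 with it and -0.59 without. The TCF motif CTTTGAT, of the factors that carry Wnt signalling, was present in 9 (29.0%), compared with 8.64% of all peaks and 13.6% of distal peaks. The MYC promoter peak had no match to it within this window, while the peak 2.53 kb before the start had 1. The AP-1 motif TGANTCA, common in enhancers, was present in 19 (61.3%), compared with 33.4% of all peaks and 61.5% of distal peaks. The E-box CACGTG, the site of MYC itself, was present in 3 (9.68%), among them the PVT1 start peak, compared with 17.9% of all peaks and 13.0% of distal peaks. These locus shares cover all 31 peaks. Of the 23 distal peaks of the locus, 5 held the interferon-response core and 9 the STAT-type motif. The TCF motif was in 7 of them, the AP-1 motif in 14 and the E-box in 1. A gap like that of the interferon-response core was also seen for other motifs. The medians were -0.45 with and -0.65 without the TCF motif, and the same for the AP-1 motif. For the E-box they were -0.84 and -0.57. A link between any motif and the log2 difference was not tested. Each motif was counted separately, whether or not its letters overlapped those of another. A match is a description of letters and does not show that a factor was bound.

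Genes that act with MYC or are known to respond to it were set beside the locus. Of 15 genes of the MYC network (partners, antagonists and regulators), 14 had a peak within 5 kb of a start site, and MYCN had none. Their 21 peaks had a median log2 difference of -0.74, with 1 above 0 (5.93% over all peaks) and 3, or 14.3%, below -1 (17.4% over all peaks and 18.0% over those within 1 kb of a start site). The table median was -0.69, and that of all peaks within 1 kb of a start site was -0.74. At its strongest peak, MAX, the obligate partner, went from 4.48 to 3.90. By the strongest peak of each gene, the lowest differences belonged to MXD3 and MXD4, which compete with MYC for MAX. MXD3 was at 6.46 in control and 5.27 after IFN-β, a log2 difference of -1.19, and MXD4 was at 5.04 and 3.88. On the same basis, the highest belonged to ZBTB17, which encodes the MYC-binding factor MIZ1, at 0.10 with an interval from -0.46 to 0.66, and to MXD1 at -0.45.

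Of 16 textbook MYC targets, 14 had such a peak, and TERT and CCND2 had none. Their 25 peaks had a median log2 difference of -0.93. The difference was above 0 at 0 of them (5.93% over all peaks and 2.98% over those within 1 kb of a start site). It was below -1 at 5, or 20.0% (17.4% over all peaks and 18.0% over those within 1 kb of a start site). Among the 18 target peaks within 1 kb of a start site, 2, or 11.1%, were below -1. The counting interval lay wholly below 0 at 21 of the 25 (67.1% over all peaks and 77.6% over those within 1 kb of a start site). The lowest differences at the strongest peak of a gene were -1.20 at CAD, an enzyme of pyrimidine synthesis, and -1.20 at EIF4E, the cap-binding translation factor. The highest were -0.66 at PTMA and -0.75 at SRM, the spermidine synthase. These peaks were also strong, with a median control level of 6.10 (5.04 over all peaks and 5.45 over those within 1 kb of a start site). Their median GC content was 63.1%, compared with 58.1% over all peaks and 63.6% over those within 1 kb of a start site. Control level and GC content both move with the log2 difference over the table. Their part in the lower median was not tested.

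**Figure D4:**
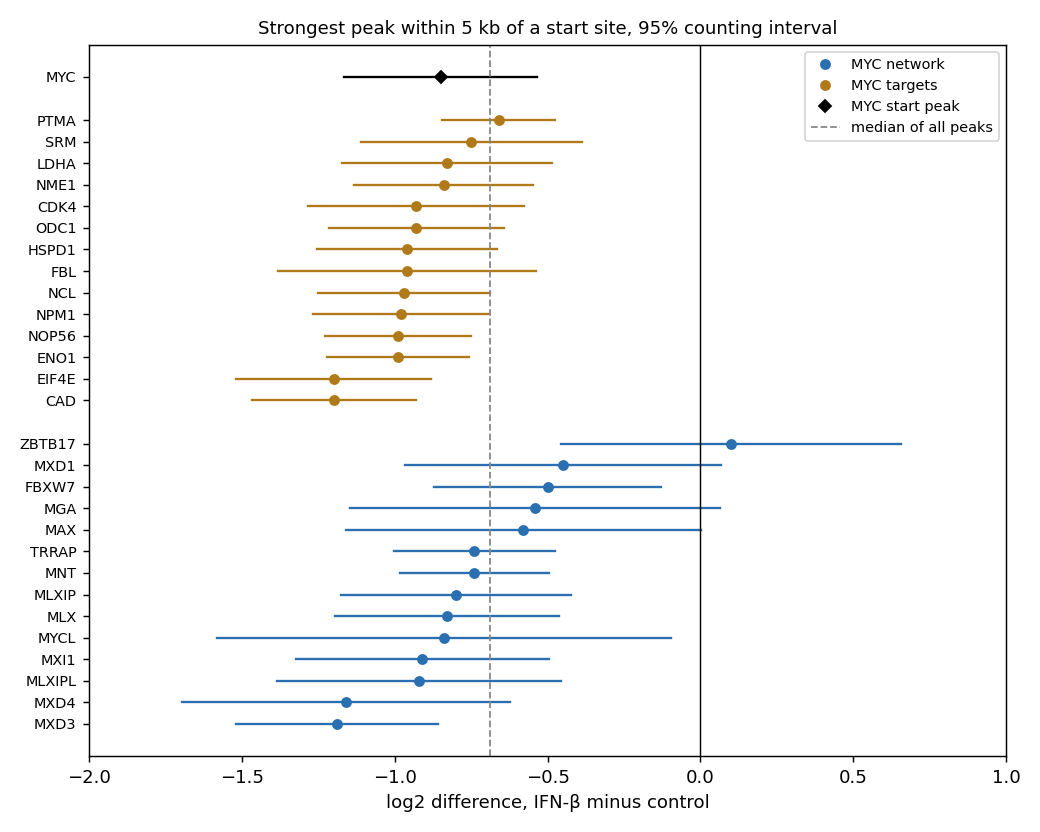
Log2 difference (IFN-β minus control) at the strongest control peak within 5 kb of a start site of each MYC network gene (blue) and MYC target gene (ochre), with the MYC promoter peak (black); horizontal lines are 95% counting intervals and the dashed line is the median of all peaks, -0.69. The MYC promoter at -0.85 lies between PTMA (-0.66) and CAD (-1.20), and ZBTB17 is the sole gene above 0, where its interval also reaches below 0.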

How the data were processed

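H3K27ac ChIP-seq libraries were made by the authors from HCT116 cells. Per the labels, the processing notes of the submitters name bcl2fastq 2.17, fastp 0.19.3, Bowtie2 2.25, SAMtools, MACS2, DiffBind and DESeq2, with GRCh38 as the build. MACS2 peaks of each library, called against the input, were merged and counted in DiffBind. The deposited values are log2 of mean normalized reads at each peak, for each group and for both groups together. The last of these matched the mean of the group values within 0.0097 on the log2 scale. There were 0 columns without a group. The authors' fold-change, p-value and FDR columns were not used.

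The difference of group means, positions relative to GENCODE release 44 and RefSeq, and sums of linear signal were computed with pandas 2.3.3, numpy 2.4.6 and scipy 1.17.1 under Python 3.11.15, and matplotlib 3.10.9 drew the plots. Counting intervals (95%) took reads from the lowest value of each group. They were tried on simulated counts with counting error only and the same reading of the lowest value, so that reading was not tested. GC content and motifs were read from GRCh38, 500 bp to either side of a centre. The members and lists were chosen with earlier results of these data known. Named are peaks within 5 kb of the MYC or PVT1 start, the 5 highest in control, the 5 highest and 5 lowest in difference, the border peaks and the 2 highest and 2 lowest genes of each list. Other named peaks, blocks, joined regions and motifs were chosen after values were seen. Depth per library was not in the table. Alternatives changed the centring, window, signal filter, scale and distances.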

Additional observations from a re-analysis of the deposited data

How the results depend on the processing

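Centring on the median of all peaks changed most. It turned the median log2 difference of the 31 peaks from -0.59 to 0.10 and, as a ratio to the sum over all peaks, the log2 ratio of the summed locus signal from -0.61 to 0.0920. The peaks at the MYC start moved to -0.0898, the PVT1 start to -0.15, the MYC network to -0.05 and the MYC targets to -0.24. Peaks above the centre numbered 19 in place of 2, and 0 in place of 5 lay more than 1 below it. With only peaks above the median mean signal, 0 were above 0 and 1 was below -1. Within 500 kb of the MYC start these counts were 1 and 3. Between the upstream and MYC-PVT1 blocks, the difference of 0.23 turned to -0.0354 over distal peaks (chosen after seeing the data), and was 0.18 without the strongest peak of each, with an interval that reached 0. The other alternatives kept the direction, with the median over the locus between -0.65 and -0.56.

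Leaving out a replicate was not run, since both libraries of a group enter as 1 mean. No paired analysis was possible because the group means carry no replicate number. The intervals cover counting error only.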
